A study of Mus musculus with 13 samples.

Results

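BLIMP1 is a zinc-finger regulator encoded by Prdm1, and the interferon regulatory factor (IRF) genes were examined for its binding in 6 mouse cell types. The 8 genes are Irf1, Irf2, Irf3, Irf4, Irf5, Irf7, Irf8 and Irf9, out of 21887 protein-coding genes. They were taken as members of a gene family by name, and no measured value is part of that rule. For each gene the summits of all 12 ChIP-seq libraries were listed in the gene and within 1, 5 and 50 kb of its ends. A summit is the single base at which a binding peak was called in 1 library.

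All cells were of the C57BL/6 strain and homozygous for a knock-in that adds EGFP to the N terminus of BLIMP1 (EGFP-BLIMP1), and chromatin was precipitated with the anti-GFP antibody ab290, so no library lacks the tag. The 6 cell types had 2 libraries each. Day 2 and day 6 primordial germ cell-like cells (d2 and d6 PGCLC) were derived in culture from knock-in embryonic stem cells by way of epiblast-like cells, with BMP4 and LIF in the medium, and sorted for KIT (d2) or for SSEA1 and integrin beta-3 (d6). Primordial germ cells of the embryo at E12.5 (PGC; E, embryonic day) were sorted for SSEA1 and gave 1 male and 1 female library, taken here as the 2 libraries of 1 cell type. Embryonic intestinal epithelium of E16.5 was sorted for GFP and EPCAM, and photoreceptor precursors came from the postnatal day 4 retina by GFP. Plasmablasts were B cells kept for 3 days with IL-4 and LPS and then gated on GFP and CD138. The sorting gates could not be set against marker expression, because the lists hold positions only.

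The libraries listed from 7998 to 76185 summits over the 19 autosomes, X and Y. The plasmablast lists were long (40750 and 45122), and the d6 PGCLC lists unequal (76185 in replicate 1 and 15411 in replicate 2). The calling threshold and the read depth are not given in the sources used here. Therefore depth and threshold cannot be told apart as sources of list length, and every number of summits or regions below depends on that length. Summits within 200 bp of each other were joined to regions across the libraries. A cell type was said to bind a region if it carried a summit of each of the cell type's libraries, which holds for 41901 of 155003 regions in at least 1 cell type.

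IRF proteins share a DNA-binding domain that reads GAAA repeats, the core of the interferon-stimulated response element. IRF1 and IRF2 act at the same sites as activator and antagonist, IRF3, IRF5 and IRF7 are switched on by pathogen sensors, and IRF9 is the DNA-binding subunit of a complex formed after interferon signalling. IRF4 and IRF8 act in lymphoid and myeloid cells together with partners such as PU.1, SPIB and BATF, and IRF4 is required with BLIMP1 for plasma cell formation. BLIMP1 recognises a GAAAG-containing sequence that overlaps the IRF site, and competition between BLIMP1 and IRF proteins at such sites is known.

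The promoter sequences below show which letters lie under the summits nearest the starts. They are from RefSeq on GRCm38.p6, which has the coordinates of mm10, run 5′ to 3′ along the gene, and count the annotated start base as 0. All 8 genes matched the promoter table, which spans 250 bases before to 50 bases after each start. Capitals mark matches on either strand to the interferon-stimulated response element core (GAAA, any 2 bases, then GAAA), TTCNNNGAA (STAT site core), AGTGAAA or GAAAGTG. The last pair of motifs was searched after the promoters had been read. AGTGAAA is a shorter form of the BLIMP1 core AGTGAAAG, which itself matched no IRF promoter. GAAAGTG is not part of that core on either strand.
Irf2, chr8:46739495-46739594, plus strand: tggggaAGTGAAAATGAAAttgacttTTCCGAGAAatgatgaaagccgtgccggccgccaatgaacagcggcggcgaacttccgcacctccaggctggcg
Irf1, chr11:53769884-53769993, plus strand: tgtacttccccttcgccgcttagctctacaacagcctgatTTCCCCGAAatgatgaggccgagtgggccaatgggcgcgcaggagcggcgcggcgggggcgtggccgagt
Irf4, chr13:30749163-30749252, plus strand: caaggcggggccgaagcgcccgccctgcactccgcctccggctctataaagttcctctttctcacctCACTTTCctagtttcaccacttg
Irf8, chr8:120736128-120736307, plus strand: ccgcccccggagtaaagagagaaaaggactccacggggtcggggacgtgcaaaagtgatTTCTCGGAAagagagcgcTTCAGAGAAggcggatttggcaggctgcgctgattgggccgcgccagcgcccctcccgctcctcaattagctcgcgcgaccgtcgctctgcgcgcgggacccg
Irf3, chr7:44997448-44997587, plus strand: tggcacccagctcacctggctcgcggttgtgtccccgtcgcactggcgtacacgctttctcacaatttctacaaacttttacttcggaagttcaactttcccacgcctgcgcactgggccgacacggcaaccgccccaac
Irf7, chr7:141266415-141266484, minus strand: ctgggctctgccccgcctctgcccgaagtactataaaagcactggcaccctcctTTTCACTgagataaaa

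The Irf2 stretch holds GAAAATGAAA at bases -241 to -232, which overlaps an AGTGAAA, and a STAT core at -224 to -216. It carried summits in 5 libraries of 4 cell types. The intestinal replicate 2 summit lay inside the response element core, the plasmablast replicate 1 summit 3 bp away, the intestinal replicate 1 summit 15 bp away, the d6 PGCLC replicate 1 summit 21 bp away and the photoreceptor precursor replicate 2 summit 67 bp away. Across all 21263 promoters of 300 bases in the table, 3.35% hold this core, 7.69% the STAT core, 4.05% AGTGAAA and 4.63% GAAAGTG. The full BLIMP1 core is in 1.3%.

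The Irf1 stretch has a STAT core at -90 to -82, 7 bp from the plasmablast replicate 1 summit and 44 bp from that of replicate 2. In the Irf4 stretch GAAAGTG lies across the start site on the opposite strand (printed CACTTTC, bases -3 to 3) and holds the plasmablast replicate 2 summit, and the replicate 1 summit lies 30 bp away. Irf8 has a pair of STAT cores, 86 and 68 bp from a summit seen in plasmablast replicate 1 alone. The Irf3 stretch holds 3 summits and none of these motifs, and the Irf7 stretch holds AGTGAAA on the opposite strand (printed TTTCACT, bases -6 to 0) with no summit within 200 bp. Irf5 and Irf9 had no match in their promoter windows. A match is a description of the letters, not evidence of a site.

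Around these genes, plasmablasts had the most binding by number, and most of it lay at Irf4, Irf8 and Irf2. Of the summits in the gene or within 50 kb, Irf4 had 41 and 35 in the plasmablast libraries, Irf8 had 32 and 42, and Irf2 had 27 and 27. The other 10 libraries had 1 to 5 summits at Irf4 (median 2), 0 to 6 at Irf8 (median 1) and 2 to 9 at Irf2 (median 2.5). These unscaled numbers depend on list length, and the plasmablast lists were long. Per 10000 summits of the library, both plasmablast libraries were above the other 10 at these 3 genes. That held for 15.7% of 17253 genes with at least 6 summits. In the map of summits along each gene, the plasmablast rows are dense from upstream of Irf4 through its body and from the Irf8 body to far downstream.

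**Figure D1:**
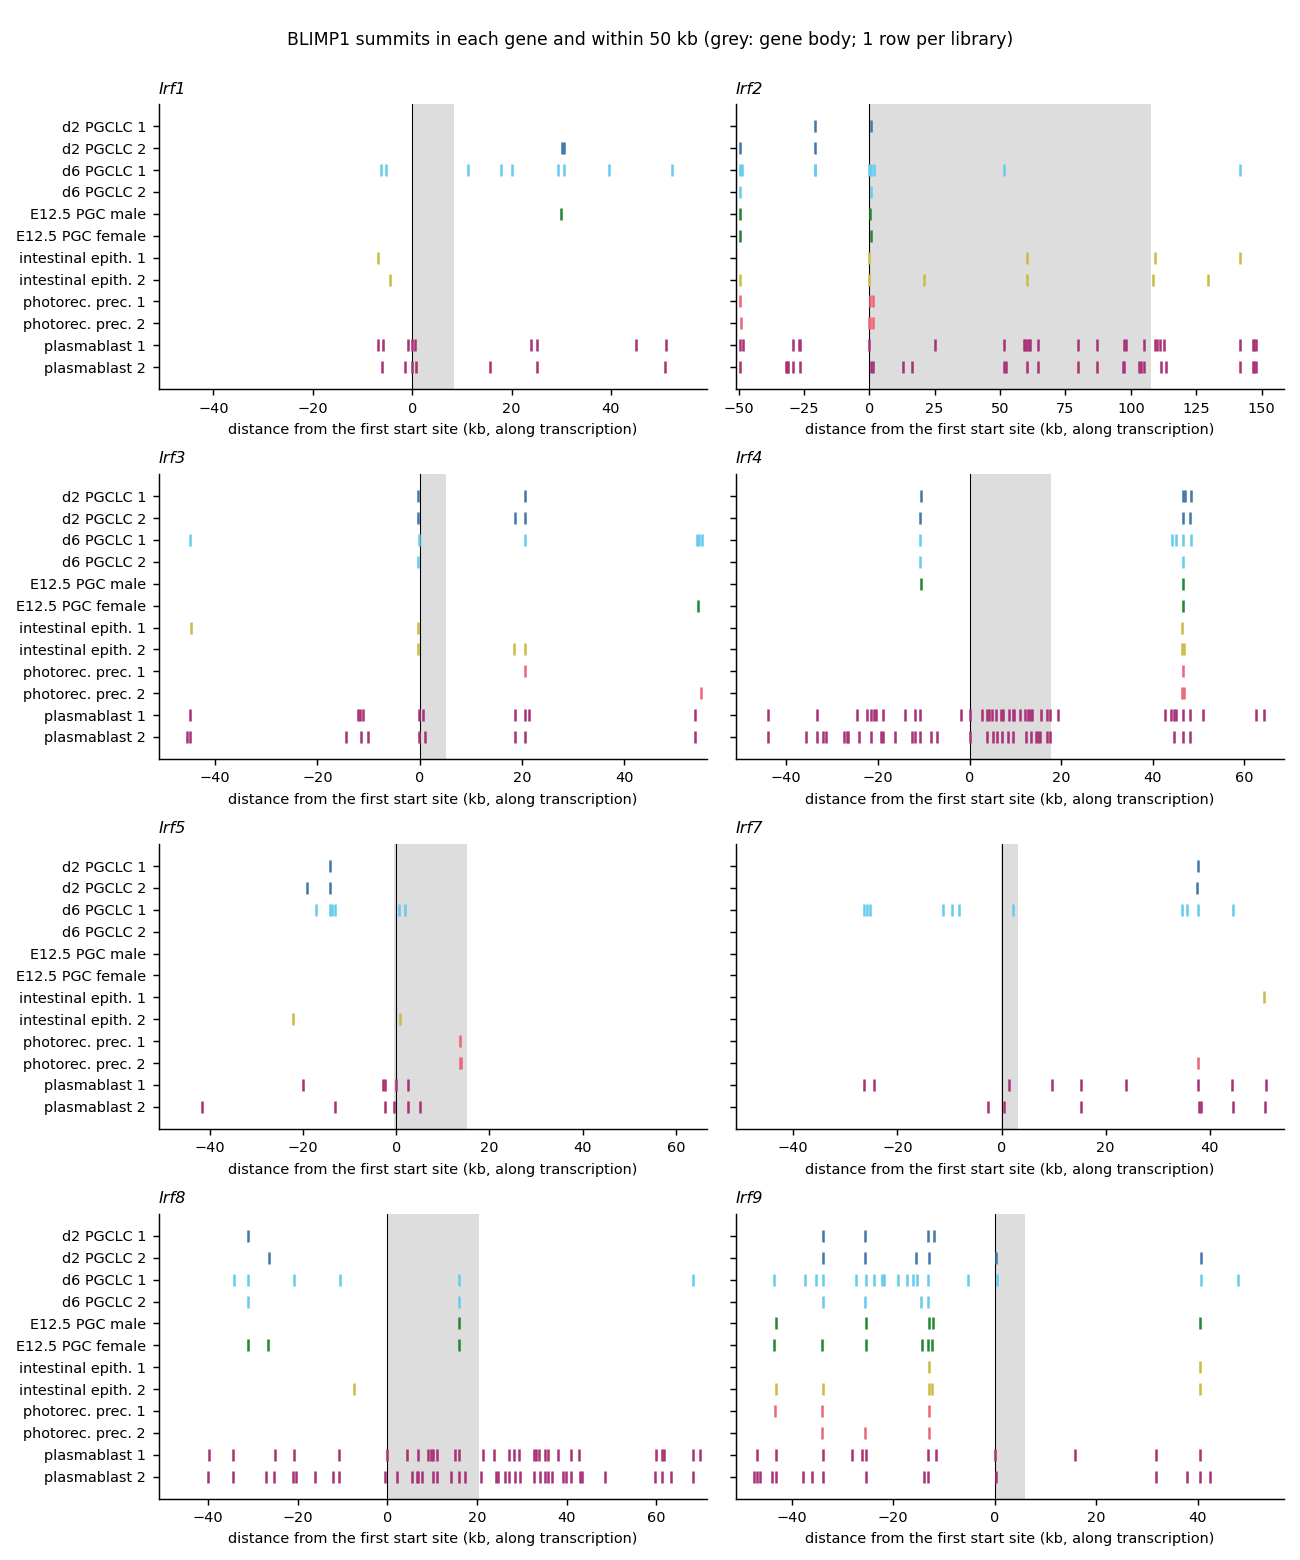
Each panel is 1 gene with distance from its first annotated start in kb along transcription (horizontal) and 1 row for each of the 12 libraries (vertical), a tick for each summit and the gene body in grey. The plasmablast rows hold 41 and 35 ticks at Irf4 and 32 and 42 at Irf8, and all 12 libraries have a tick near 46.8 kb at Irf4.

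Irf4, the lymphoid member needed for plasma cells, lies on chromosome 13 from 30749233 to 30766981 on the plus strand (gene 16364). It had 19 plasmablast-bound regions in the gene or within 50 kb, 6 upstream, 10 in the gene and 3 downstream. The d2 PGCLC had 3 bound regions in that window, d6 PGCLC 2, and E12.5 PGC, intestinal epithelium and photoreceptor precursors 1 each. Inside the gene, the plasmablast libraries had 19 and 14 summits and the other 10 libraries had 0. Of the 19 regions, 16 had no summit in any other library. The regions ran from -43.9 to 48.2 kb relative to the start with a median gap of 2.097 kb, and the nearest summits of the replicates were a median of 48 bp apart (range 7 to 142).

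The first Irf4 region is at the promoter (chr13:30749235-30749266), and 9 more follow through the gene body to 17.5 kb. Of the regions shared with other cell types, one lies upstream (chr13:30738380-30738645, centre at -10.7 kb) and was bound in d2 PGCLC, d6 PGCLC and plasmablasts. Another (chr13:30795697-30796302, centre at 46.8 kb) held a summit in all 12 libraries and was bound in all 6 cell types. It lies within Exoc2, an exocyst subunit gene, as does a neighbouring region bound in d2 PGCLC and plasmablasts (chr13:30797321-30797521). Of the 19 regions, 13 have Irf4 as the nearest protein-coding gene, and the others are nearest to Dusp22 or Exoc2.

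Irf8, which acts in B cells and myeloid cells, lies on chromosome 8 from 120736358 to 120756694 on the plus strand (gene 15900). It had 18 plasmablast-bound regions, 3 upstream, 4 in the gene and 11 downstream, against 2 in d6 PGCLC, 1 in E12.5 PGC and 0 in the remaining cell types. The 18 regions ran from -34.5 to 68.2 kb relative to the start, with a median gap of 3.25 kb. Replicate summits were a median of 40 bp apart (range 6 to 145). Of the 18 regions, 15 had no summit in another library and 17 have Irf8 as the nearest protein-coding gene.

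Germ-lineage cells shared 1 region of the Irf8 body with plasmablasts. It lies at chr8:120752291-120752436, 16.0 kb from the start, and held summits in d6 PGCLC, E12.5 PGC and plasmablast libraries, 6 in all. A second region, at -31.1 kb (chr8:120705199-120705274), met the rule for bound in d6 PGCLC alone. It also held a summit of d2 PGCLC replicate 1 and of the female E12.5 PGC library. At the first Irf8 start the plasmablast summits did not coincide: replicate 1 had its summit at -77 bp and replicate 2 at -607 bp. At the second annotated start (120738639) replicate 2 alone had a summit, at -43 bp. No bound region lay within 1 kb of either end of the gene.

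Irf2, the antagonist of IRF1, lies on chromosome 8 from 46739745 to 46847458 on the plus strand (gene 16363). At 107.714 kb it is the longest of the 8, and its window is longer by the same amount. Its 14 plasmablast-bound regions were 3 upstream, 6 in the gene and 5 downstream, and every other cell type had 1 (d2 PGCLC) or 2. The start region was the part of the gene most used across cell types: every library but d2 PGCLC replicate 2 listed a summit less than 1 kb from an end, 11 of 12. That binding was split over adjacent positions. A region at the printed promoter (chr8:46739512-46739580) was bound in intestinal epithelium. One just inside the gene (chr8:46740078-46740286) was bound in d6 PGCLC and E12.5 PGC and had summits in 7 libraries. Photoreceptor precursors had a bound region at 1.49 kb (chr8:46741101-46741359). Nearer the start their summits did not coincide, with replicate 2 at -165 and 103 bp and replicate 1 at 384 bp.

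The plasmablast replicates were at different places of the Irf2 start, with the replicate 1 summit at -229 bp and the nearest replicate 2 summit at 470 bp. Further regions of Irf2 were shared at -49.3 kb (chr8:46690294-46690502, bound in d6 PGCLC, E12.5 PGC, photoreceptor precursors and plasmablasts) and in the body at 60.2 kb (chr8:46799891-46800045, bound in intestinal epithelium and plasmablasts).

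Irf1, the interferon-induced activator, lies on chromosome 11 from 53770014 to 53778374 on the plus strand (gene 16362). It had 5 bound regions, all in plasmablasts, with 0 in the other 5 cell types. The promoter region (chr11:53769939-53769976) and a region at 0.659 kb (chr11:53770655-53770690) flank the start, 1 region lies at -6.10 kb, and 2 lie past the gene at 25.1 and 50.9 kb. Within 1 kb of an end, the plasmablast libraries had 3 and 2 summits and the other 10 libraries had 0. In the wider window d6 PGCLC replicate 1, the longest list, had 9 summits, as many as plasmablast replicate 1, and d6 PGCLC replicate 2 had 0.

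Irf3, Irf5 and Irf7, the members activated downstream of pathogen sensors, differed from each other. Irf3 (chromosome 7, 44997648 to 45002848, plus strand, gene 54131) was bound at its promoter in d2 PGCLC, d6 PGCLC, intestinal epithelium and plasmablasts, in 1 region with summits in 8 libraries (chr7:44997268-44997556). No E12.5 PGC or photoreceptor precursor library had a summit within 1 kb. The Bcl2l12 start lies 69 bp from the Irf3 start and faces the other way, and the region lies within Bcl2l12, just past that start. Its nearest protein-coding gene is thus Bcl2l12, and which gene the binding serves was not tested. Of the 5 bound regions around Irf3, 0 have Irf3 as the nearest protein-coding gene. In the gene or within 50 kb, the plasmablast libraries had 10 and 10 summits at Irf3, and the other libraries 0 to 6.

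Irf5 (chromosome 6, 29526130 to 29541869, plus strand, gene 27056) had 4 bound regions, each in 1 cell type. Plasmablasts had regions at -2.42 and 2.61 kb, d2 PGCLC at -14.3 kb and photoreceptor precursors at 13.7 kb, in the last part of the gene. The E12.5 PGC libraries listed 0 summits in its whole window, as did d6 PGCLC replicate 2 and intestinal replicate 1. Irf7 (chromosome 7, 141263183 to 141266499, minus strand, gene 54123) had no bound region within 5 kb in any cell type. Its 4 plasmablast-bound regions lie 15.3 to 50.6 kb from its start, past the gene, and are nearest to other genes, and one of them, at the Phrf1 start (chr7:141228514-141228842), was also bound in d2 PGCLC. Of the Irf7 summits, 11 came from d6 PGCLC replicate 1 and 0 from replicate 2.

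Irf9, which acts in the response to type I interferon, lies on chromosome 14 from 55603985 to 55610030 on the plus strand (gene 16391). Like Irf2 and Irf4, it had a bound region in its window in every cell type, with 7 bound regions in plasmablasts, 4 in E12.5 PGC, 3 in each of the PGCLC stages, and 2 each in photoreceptor precursors and intestinal epithelium. None of these 8 regions is nearest to Irf9 itself. The region bound in all 6 cell types, with summits in all 12 libraries (chr14:55590811-55591047), lies at the start of Psme2, a proteasome activator subunit gene, with its centre at -13.1 kb from the Irf9 start. A region at the start of Psme1, the partner subunit, was bound in d2 PGCLC, d6 PGCLC, E12.5 PGC and plasmablasts (chr14:55578384-55578630). Close to Irf9, 4 libraries had a summit within 1 kb (d2 PGCLC replicate 2, d6 PGCLC replicate 1 and both plasmablast libraries), and no cell type had a bound region there.

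**Figure D2:**
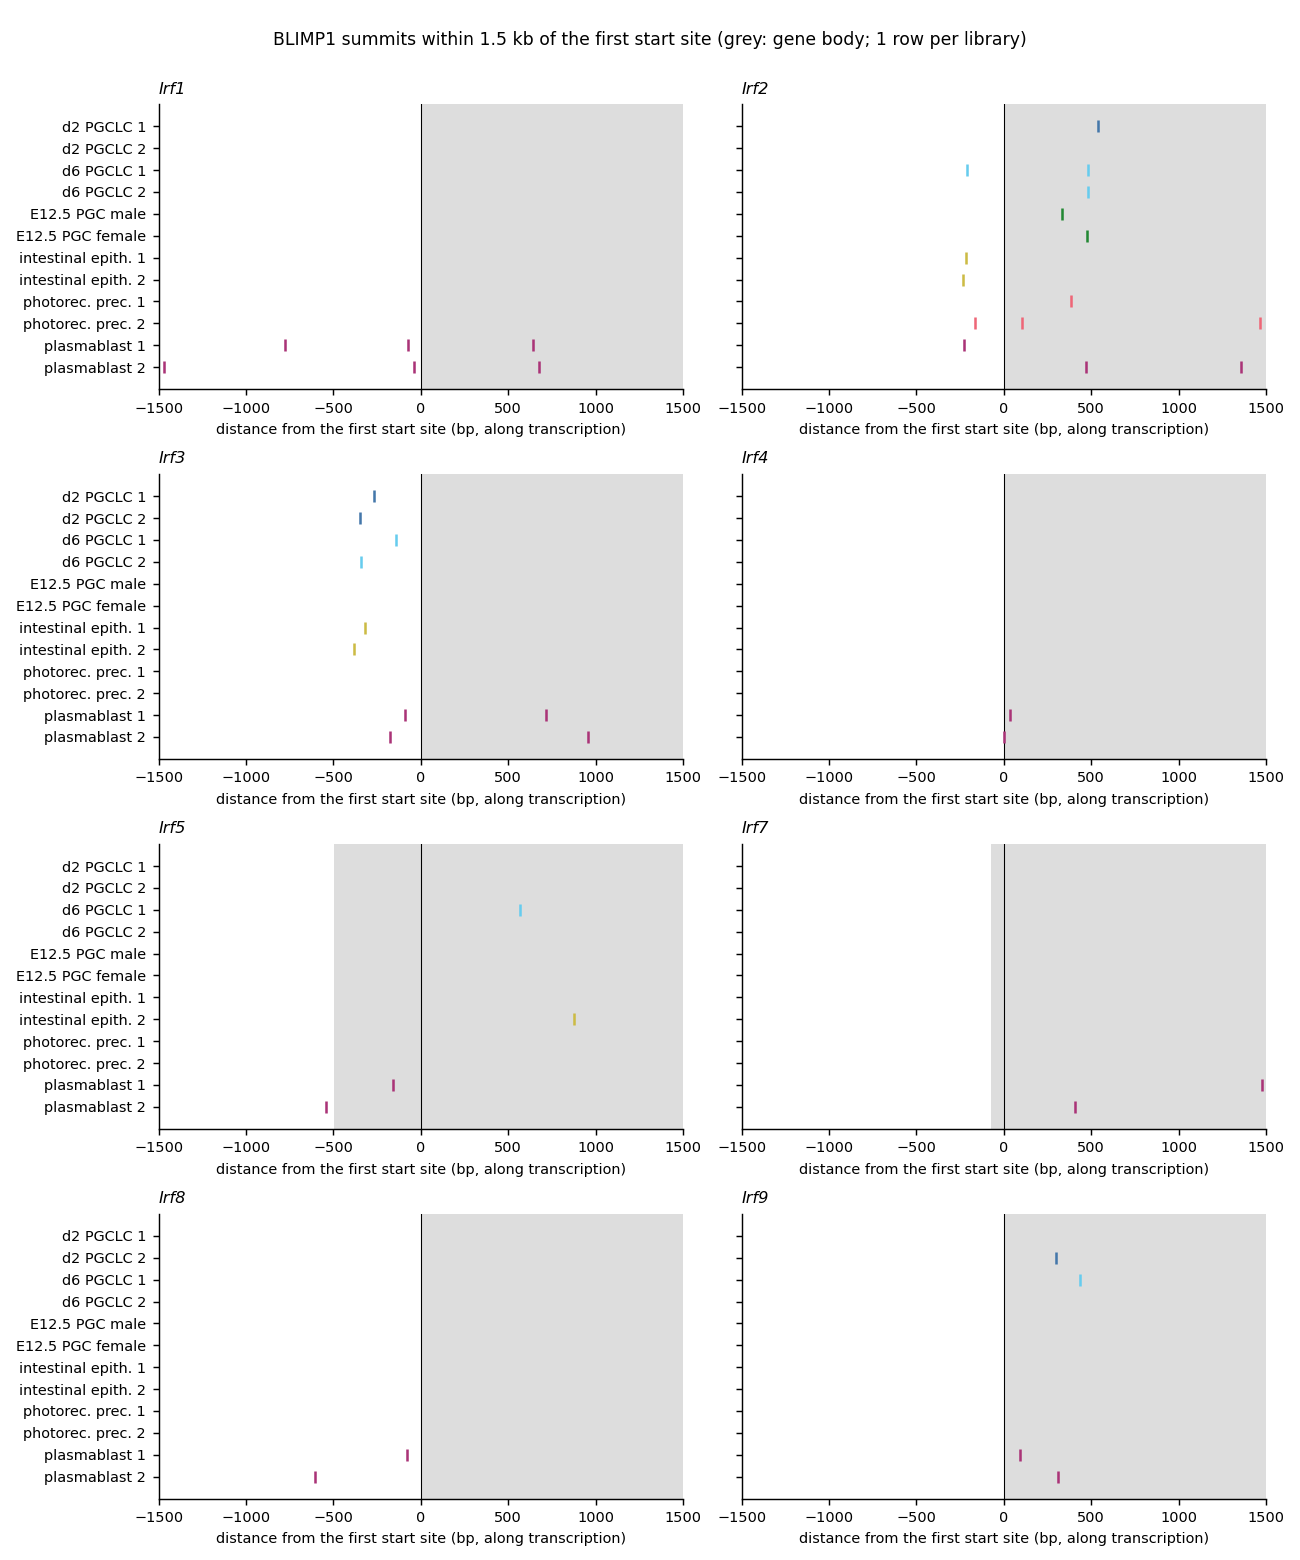
Each panel is 1 gene with distance from the first annotated start in bp (horizontal) and 1 row per library (vertical), with ticks for summits and the gene body in grey. Ticks within 1.5 kb are in plasmablast rows alone at Irf1, Irf4, Irf7 and Irf8, and in 11 libraries at Irf2.

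The number of members bound was set beside the share of all protein-coding genes bound by the same rule. Within 1 kb of an end, 3 of the 8 genes had a plasmablast-bound region (Irf1, Irf3 and Irf4) where 33.9% of all genes did, so the members' share was near the background. Irf3 was the 1 member bound in d2 PGCLC (background 8.43%), Irf2 and Irf3 the 2 in d6 PGCLC (8.97%) and the 2 in intestinal epithelium (7%), and Irf2 the 1 in E12.5 PGC (5.81%). Photoreceptor precursors had 0 (9.43%). With so few genes these counts set no member share apart from the background.

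The plasmablast number near the ends rests on the rule for calling. Where both libraries needed a summit within 1 kb but not in the same region, 7 of the 8 genes were bound (all but Irf7), against 39.7% of all genes. By that rule d2 PGCLC had 1 member (8.41%), d6 PGCLC 2 (9.72%), E12.5 PGC 1 (5.79%), intestinal epithelium 2 (7.29%) and photoreceptor precursors 1 (9.68%). With replicate 2 alone all 8 genes had a summit there (45.8% of all genes), and with replicate 1 alone 7 (43%). In photoreceptor precursors replicate 1 alone and replicate 2 alone each gave 1 gene, Irf2, in place of 0 (2733 and 3248 of all 21887 genes). In d2 PGCLC each replicate alone gave 2 in place of 1 (9.99% for replicate 1 and 17.6% for replicate 2).

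Inside the gene body, plasmablasts bound 5 members (Irf1, Irf2, Irf4, Irf5 and Irf8), where they bound 37.5% of all genes. Irf2 and Irf8 were bound there in d6 PGCLC (19.4%) and E12.5 PGC (14.1%), Irf2 in intestinal epithelium (11.2%), Irf2 and Irf5 in photoreceptor precursors (15.3%), and 0 members in d2 PGCLC (19.3%). In the gene or within 50 kb, all 8 members had a plasmablast-bound region (background 70%), and 6 had one bound in d2 PGCLC (53.5%). The numbers were 5 for d6 PGCLC (53.5%) and 4 each for intestinal epithelium (35.9%), E12.5 PGC (42.2%) and photoreceptor precursors (41.7%). Within 5 kb of an end the plasmablast count was 6 (44.6%), and that of d6 PGCLC 3 (17.7%). In d2 PGCLC it was 1 (16.9%), and in E12.5 PGC, intestinal epithelium and photoreceptor precursors 2 each (11.4%, 11.7% and 14.5%). Without d6 PGCLC replicate 2 the d6 PGCLC count within 50 kb was 8 (82.9% of all genes), and without intestinal replicate 1 the intestinal count was 7 (57.9%). Assigning each region only to its nearest protein-coding gene left 5 members in plasmablasts (Irf1, Irf2, Irf4, Irf5 and Irf8), where 46.3% of all genes had such a region.

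**Figure D3:**
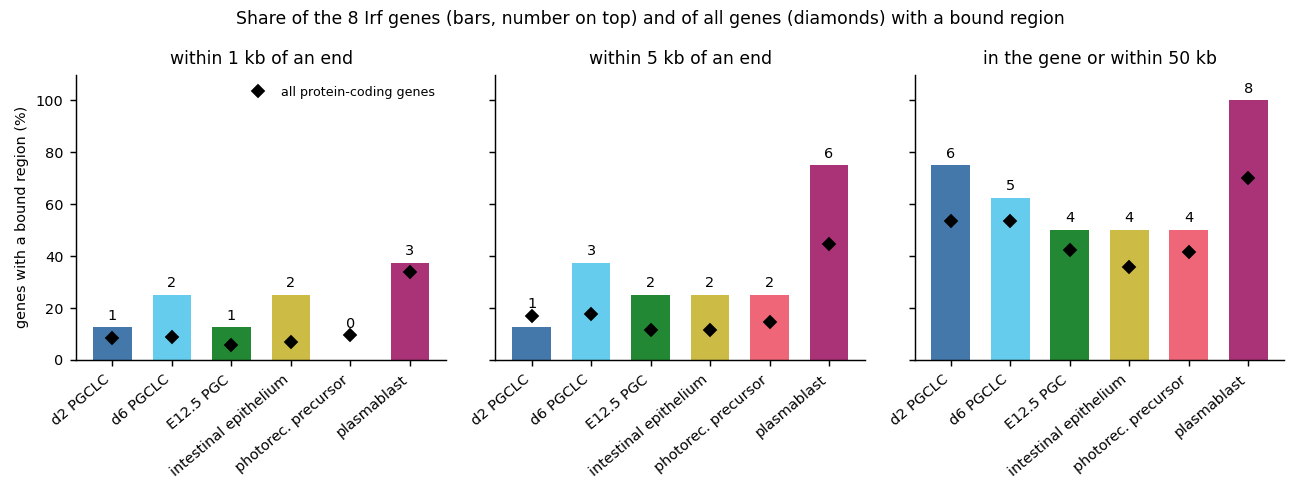
Bars give the percentage of the 8 IRF genes with a bound region in each cell type, with the number on top, and diamonds the percentage of all 21887 protein-coding genes, for 3 windows. The plasmablast bar meets the diamond within 1 kb (3 genes, 33.9% of all genes) and stands above it in the 2 wider windows.

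The number of regions per gene placed some members far from the typical gene. The median protein-coding gene had 2 plasmablast-bound regions in its body or within 50 kb, and the 99th percentile was 13. Irf4 had 19, a number exceeded by 19 genes. Irf8 had 18, exceeded by 25 genes, and Irf2 had 14, exceeded by 116. Irf9 had 7, Irf1 and Irf3 had 5 each, Irf7 had 4 and Irf5 had 2, the median of all genes. These numbers ask for both replicates. With 1 replicate alone they equal that library's summits, 41 and 35 at Irf4 (exceeded by 6 and 32 genes), 32 and 42 at Irf8 (30 and 7) and 27 and 27 at Irf2 (99 and 157), and the median gene had 3 in replicate 1 and 4 in replicate 2. The numbers of the other 5 genes also went up, to 9 and 7 at Irf1, 10 and 10 at Irf3, 5 and 6 at Irf5, 9 and 7 at Irf7 and 12 and 16 at Irf9. Merging at 100 bp left 1 of the 4 Irf7 regions. Within gene bodies of at least 5 kb, a length chosen after the values were seen, Irf4 had 5.63 plasmablast-bound regions per 10 kb, exceeded by 4 of 16853 genes. Irf8 had 1.97 per 10 kb, exceeded by 263 genes, and Irf1 had 1.20, exceeded by 1096. Irf5 had 0.635, exceeded by 2694, and Irf2 had 0.557, exceeded by 3079. Irf3 and Irf9 had 0, as did the median gene.

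**Figure D4:**
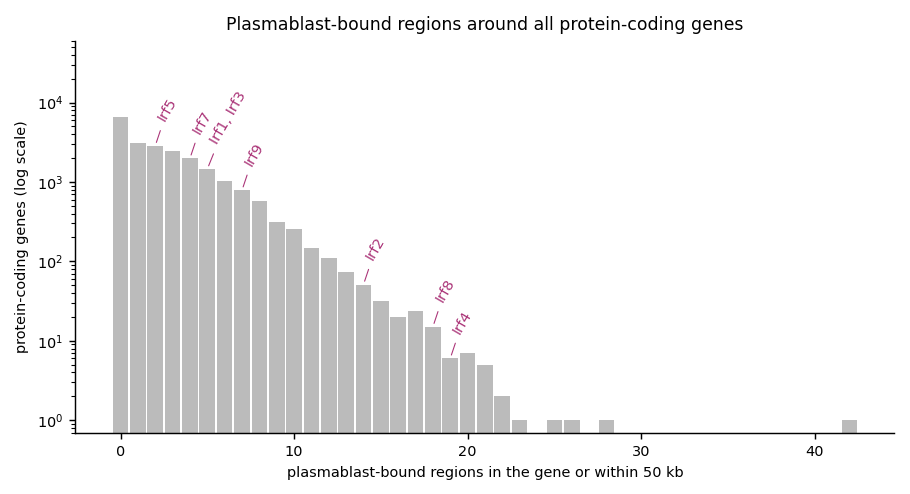
The horizontal axis is the number of plasmablast-bound regions in a gene or within 50 kb and the vertical axis the number of protein-coding genes on a log scale. Irf4 (19), Irf8 (18) and Irf2 (14) lie in the right tail, above the 99th percentile of 13, and the other 5 genes lie between 2 and 7.

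Because the lists differ in length, summits were also expressed per 10000 summits of the library. On this scale Irf4 had 10.1 and 7.76 in plasmablasts, against 0.562 to 2.46 in the other 10 libraries (median 1.27). Irf8 had 7.85 and 9.31, against 0 to 1.69. Irf2 had 6.63 and 5.98, and the next libraries were the intestinal ones with 5.00 and 4.95. Irf1 had 2.21 and 1.55, against 0 to 1.25, and Irf7 the same plasmablast values, against 0 to 1.44. Both plasmablast libraries were therefore above the other 10 for 5 of the 8 genes, where 15.7% of 17253 genes with at least 6 summits were. This count was chosen after the values were seen.

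The other 3 genes had another order. At Irf3 the intestinal libraries had 2.50 and 2.48 per 10000 summits, from only 2 and 3 listed summits. Both lay above all other libraries (9.32% of genes had that pattern). Plasmablasts were close, with 2.45 and 2.22, from 10 and 10 listed summits. At Irf9 the range over all libraries was narrow, from 2.15 to 4.13, with the highest values in intestinal replicate 2 (4.13) and the male E12.5 PGC library (4.07). At Irf5 the highest was intestinal replicate 2 with 1.65, and plasmablasts had 1.23 and 1.33. No member had both libraries of d2 PGCLC, d6 PGCLC, E12.5 PGC or photoreceptor precursors above the rest (background 1.7%, 1.45%, 1.7% and 6.75%). Over the 8 genes together, the plasmablast libraries had 0.356% and 0.332% of their summits in these windows, and the other libraries 0.0714% to 0.165%.

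**Figure D5:**
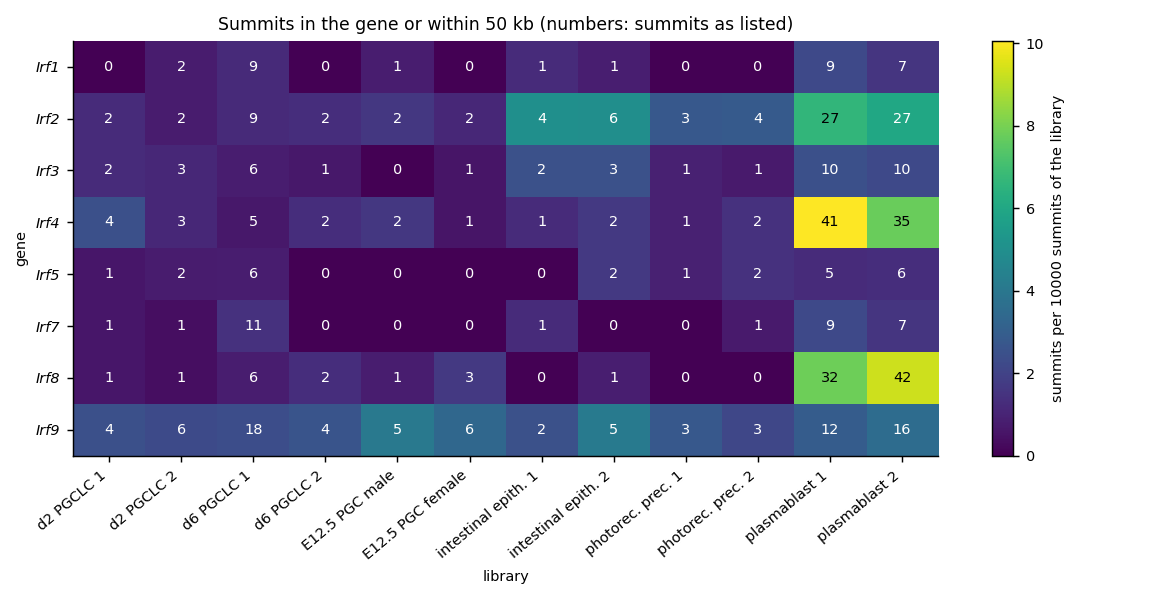
Rows are the 8 genes and columns the 12 libraries; colour gives summits in the gene or within 50 kb per 10000 summits of the library, and the printed number the summits as listed. The brightest cells are Irf4 in plasmablast replicate 1 (10.1) and Irf8 in plasmablast replicate 2 (9.31), while the Irf9 row is even, from 2.15 to 4.13.

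Whether libraries of a cell type were closer to each other than libraries paired otherwise was asked gene by gene over the 10395 possible sets of 6 pairs, on summits per 10000, by a one-sided exact permutation test. Of 17253 genes, 2.9% passed at an adjusted p under 0.05 (Benjamini-Hochberg over all of them) and 37.7% at an unadjusted p under 0.05. Irf3 (p = 0.000385) and Irf2 (p = 0.000962) passed, both with adjusted p = 0.0498 by this exact test, the smallest adjusted value that any gene reached. At Irf2 the values were 4.98 ± 0.0344 (SD, n = 2) in intestinal epithelium and 6.30 ± 0.454 in plasmablasts, and 0.991 to 2.81 as means of the other 4 cell types. At Irf3 they were 2.49 ± 0.0172 in intestinal epithelium, 2.34 ± 0.168 in plasmablasts and 0.281 to 1.18 as means of the rest. The intestinal values rest on few listed summits, 4 and 6 at Irf2 and 2 and 3 at Irf3.

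Irf8 gave p = 0.0144 and adjusted p = 0.0779 by the exact test, and Irf4 p = 0.0632 and adjusted p = 0.149. The statistic sums squared differences within cell types, so it does not measure how far plasmablasts lay from the rest. Plasmablasts had 8.91 ± 1.63 (SD, n = 2) at Irf4 and 8.58 ± 1.03 at Irf8. With the plasmablast libraries left out, p was 0.695 at Irf4 and 0.159 at Irf8 by the exact test. Adjusted values for Irf1, Irf5, Irf7 and Irf9 lay between 0.184 and 0.396 by the exact test. The calls for Irf2 and Irf3 were lost without scaling, without the filter on low numbers, with a 5 kb window, and on leaving out any 1 cell type. No gene passed at an adjusted p under 0.05 by the exact test in these alternatives, and 3101 to 6542 genes did at an unadjusted p under 0.05. With a cell type left out, 945 pairings allowed a smallest p of 0.00106 by the exact test. Irf3 was at that floor without d6 PGCLC and without photoreceptor precursors. The losses on leaving out a cell type therefore cannot show that a call depended on that cell type. Nothing in the labels states that replicates are separate cultures or animals. These p-values tell only how close libraries of a cell type were to each other, against other pairings of the libraries.

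Of 82 bound regions in the windows of the 8 genes, 67 (81.7%) were bound in 1 cell type, where 71.0% of all 41901 bound regions were. Of the rest, 7 were bound in 2, 2 in 3, 4 in 4 and 2 in all 6. Plasmablasts bound 74 of the 82 (90.2%, against 55.4% of all bound regions), and 52 of these 74 (70.3%) had no summit in any other library, where 51.8% of all 23218 plasmablast-bound regions had none. The genes differed in this. At Irf4 the number was 16 of 19, at Irf8 15 of 18, at Irf2 10 of 14 and at Irf1 4 of 5. At Irf3 it was 1 of 5 and at Irf9 2 of 7, and the rest had a summit in at least 1 library of another cell type. The 8 regions bound without plasmablasts (9.76%, against 44.6% of all) were 4 at Irf2, 2 at Irf5 and 1 each at Irf8 and Irf9.

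The genes around the IRFs in the interferon pathway were taken from a list of 42 genes and scored for a bound region within 1 kb of an end. In plasmablasts 30 of the 42 were bound (33.9% of all genes), in d6 PGCLC 10, in d2 PGCLC, intestinal epithelium and photoreceptor precursors 9 each, and in E12.5 PGC 8, beside the backgrounds given above for those cell types. The remaining 12 were bound in none. All 4 receptor genes were bound in plasmablasts and in no other cell type, among them Ifnar1 and Ifnar2, which encode the type I interferon receptor, and Ifngr1 of the type II receptor.

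Among the receptor kinases, Jak2 was bound in photoreceptor precursors and plasmablasts, Tyk2 in plasmablasts and Jak1 in no cell type. Of 17 sensors and adaptors that act before IRF3, IRF5 and IRF7, 13 were bound in plasmablasts, including Irak4 (all 6 cell types), Tbk1, the kinase of IRF3 (d2 PGCLC, d6 PGCLC, intestinal epithelium and plasmablasts), and Ticam1 (d2 PGCLC, intestinal epithelium, photoreceptor precursors and plasmablasts).

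Of the 5 DNA-binding partners, Tcf3 was bound in photoreceptor precursors and plasmablasts, Batf and Spib in plasmablasts, and 2 in no cell type. Of the 5 co-repressor and feedback genes, 1 was bound in no cell type. Irf2bp1, which encodes an IRF2-binding co-repressor, was bound in all 6 cell types, Socs1 in all but intestinal epithelium, and Usp18 in 4. Of 7 target genes, Gbp2 and Nlrc5 were bound in all 6, Cxcl10 in d6 PGCLC, intestinal epithelium and plasmablasts, and 3 in no cell type. Thus Irak4, Irf2bp1, Gbp2 and Nlrc5 were bound near an end in every cell type. Genes were named here by the number of cell types bound. The share of all genes bound near an end in every cell type is not given.

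The genes on other chromosomes with the most similar summit numbers over the 12 libraries were found by Euclidean distance between the listed numbers. Irf8 was nearest to Ikzf1, which encodes the lymphoid regulator Ikaros, with a distance of 6 and plasmablast summits of 31 and 40. Next came Gpr18 (8.54) and Ppp1r16b (9.90). Irf4 had no gene that near, with Gimap7 at 9.85, Gimap6 at 11.4 and Ubac2 at 11.6. Irf2 was nearest to Filip1l (4.47). The members with few summits had near matches, such as Swsap1 for Irf5 (1.41), Gid8 for Irf7 (2.24), Ache and Ufsp1, both on chromosome 5 and with the same numbers, for Irf1 (2.45), Pfn3 for Irf3 (2.24) and Cux2 for Irf9 (3.46). Irf1 was also the third nearest gene to Irf7, at a distance of 3. List length and the unequal d6 PGCLC replicates are shared by all genes in this measure.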

How the data were processed

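Binding of BLIMP1 was measured by ChIP-seq in 12 libraries of 6 cell types, and an input library is left out. MACS2 2.1, Bowtie 1.1.2, cutadapt 1.7.1 and Trim Galore 0.3.7 and the build mm10 are named, with no roles, per the submitters' processing notes. Each list deposited by the authors is for 1 library and holds a chromosome and a position per summit, with no score. The calling threshold, the control and the depth are not given in the sources used here, nor is whether positions count from 0, so they may be off by 1 bp.

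Genes and promoters came from RefSeq tables of GRCm38.p6. They give no exons, so regions are placed only as upstream, in the gene or downstream. Some single genes of the family and the pathway are not reported here. The 8 genes, the 42 pathway genes and the motifs were chosen with earlier results of these data known. Named pathway genes are up to 3 per role, by the number of cell types bound and then by symbol, named regions are bound in at least 1 cell type, and the 3 genes most alike to each member were listed by distance. The printed sequence stretches, the count of libraries above all others and the density per 10 kb were chosen after seeing the data. The exact pairing test used genes with at least 6 summits and was tested on simulated data. Python 3.11.15, numpy 2.4.6, pandas 2.3.3 and matplotlib 3.10.9 were used. Replicate numbers were not taken to pair libraries across cell types: the correlations of deviations over 10 pairs of cell types ran from -0.276 to 0.0441. Alternatives changed the merge distance, the rule for bound, the library used, the gene assignment and, for the test, the scaling, the filter, the window and the cell types.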

Additional observations from a re-analysis of the deposited data

How the results depend on the processing

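The numbers of members bound depended on the calling rule, and the cause was not tested beyond what each rule sets by construction (either library, or 1 library alone, asks for less than both). Within 1 kb of an end, the plasmablast number of 3 became 7 with merging at 500 bp, 7 when both libraries needed any summit, 8 with either library, and 7 to 8 on leaving out a replicate. The share of all genes was 39.7% with any summit of both, 43% with replicate 1 alone and 45.8% with replicate 2 alone. For merging at 500 bp and for either library no such share is given. Numbers without a share of all genes, here or above, have no background and are not read as a result about the members. Photoreceptor precursors went from 0 to 1 with merging at 500 bp, with any summit of both, with either library, and on leaving out each replicate (1 to 1). The d2 PGCLC number of 1 became 3 with either library, 0 with the nearest gene only, and 2 to 2 on leaving out a replicate. With the nearest gene only, d6 PGCLC and intestinal epithelium went from 2 to 1. Within 50 kb, the nearest gene only gave 5 in plasmablasts, 3 in d6 PGCLC, 2 each in d2 PGCLC, photoreceptor precursors and E12.5 PGC, and 1 in intestinal epithelium. Either library gave 8 in d6 PGCLC and 8 in intestinal epithelium. Leaving out a replicate gave 5 to 8 in d6 PGCLC (8 without replicate 2) and 6 to 7 in intestinal epithelium (7 without replicate 1).

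The 500 genes called by the exact pairing test became 535 on a square-root scale, and 0 without scaling (3101 at an unadjusted p under 0.05), without the filter (6542), with a 5 kb window (3454) and on leaving out each cell type (0 to 0, with 3904 to 6198 unadjusted). On leaving out a cell type the smallest p that the exact test allowed was 0.00106, from 945 pairings. As a replicate block, replicate 1 libraries were paired only with replicate 2 libraries, without the E12.5 PGC libraries, which are not numbered as replicates 1 and 2. The 120 pairings allowed a smallest p of 0.00833, 0 genes passed after adjustment and 3180 did unadjusted. In this block p was 0.00833 for Irf3, 0.0167 for Irf2 and 0.05 for Irf8 by the exact test. Of the other values recomputed, 232 were unchanged within the rule, 89 moved, 3 went under an unadjusted p of 0.05 in the exact test and 2 no longer did.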
